A study of Homo sapiens with 4 samples.

Results

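The genes described here encode the core of carbon metabolism: the transporters and enzymes of glycolysis, the pyruvate dehydrogenase complex, the pentose phosphate pathway and the tricarboxylic acid (TCA) cycle. They were chosen by name for their pathway, but with earlier results of these data known. Each of the 48 symbols matched 1 of the 53777 Ensembl genes of the deposited table. RNA was sequenced from NUGC3, an established human stomach cancer cell line, in 2 libraries of wild-type cells and 2 libraries of cells with a knockdown of MYC. The labels do not state the knockdown method or whether replicates are separate cultures, so each p-value covers only the spread among these 4 libraries, which may be technical. The comparison asked which transcripts differ between the line with its MYC level intact and the line with MYC knocked down.

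Glycolysis splits glucose into pyruvate and yields ATP and NADH. Lactate dehydrogenase turns pyruvate into lactate, which monocarboxylate transporters carry out of the cell, while pyruvate dehydrogenase sends pyruvate into the mitochondrial TCA cycle as acetyl-CoA. The pentose phosphate pathway branches off at glucose 6-phosphate and supplies NADPH and ribose 5-phosphate for nucleotides. MYC is a transcription factor that binds, with its partner MAX, to the E-box sequence CACGTG, and several glycolytic genes, LDHA among them, are textbook MYC targets.

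The E-box was therefore searched in the promoter windows of the RefSeq table (GRCh38.p14), which run from 250 bases before to 50 bases after a start. The motif reads the same on both strands. Of 48 genes, 45 matched a window, and 7 of them (15.6%) held CACGTG in at least 1 window, against 8.77% of all 27305 genes in that table. These genes had on average 1.67 windows each and all genes 1.29, and counted by window the shares were 9.33% and 7.26%. Any window listed more than once was counted once for these genes, but not for all genes. The stretches around the motif are shown for these 7 genes because they let the measured differences be read beside the letters. The motif is in capitals, the strand is that of the gene, and every stretch lies before the start of its RefSeq window. The stretches of HK2, ALDOA, ALDOC, GAPDH and PFKFB3, and part of that of LDHA, lie inside the GENCODE span of the gene. HK2, LDHA and PFKFB3 had 2 windows and ALDOA 3, with the motif in only 1 of them.
HK2, chr2:74834962-74835040, plus strand: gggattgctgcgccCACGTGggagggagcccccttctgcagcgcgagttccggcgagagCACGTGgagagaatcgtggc
LDHA, chr11:18394364-18394495, plus strand: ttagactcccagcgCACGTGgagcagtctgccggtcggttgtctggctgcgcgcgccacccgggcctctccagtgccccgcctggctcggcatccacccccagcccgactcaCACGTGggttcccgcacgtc
ALDOA, chr16:30064371-30064404, plus strand: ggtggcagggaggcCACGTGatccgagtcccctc
ALDOC, chr17:28577116-28577145, minus strand: aagtgcccggCACGTGgtaaagggattgtg
GAPDH, chr12:6535169-6535202, plus strand: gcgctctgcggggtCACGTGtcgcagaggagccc
PDHB, chr3:58434049-58434082, minus strand: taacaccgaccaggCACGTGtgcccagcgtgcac
PFKFB3, chr10:6202810-6202843, plus strand: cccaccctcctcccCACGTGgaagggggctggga
HK2 and LDHA each held 2 copies, at 194 and 149 bases before the start in HK2 and at 185 and 87 bases before it in LDHA. A match is a run of letters and not a measured binding site.

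Most of the glycolytic genes chosen here were lower in the knockdown libraries, while the pentose phosphate and TCA genes lay on both sides of wild type. All values are read as FPKM (fragments per kilobase of transcript, scaled to library size), a unit inferred from the values. It is a level per transcript length that can be compared between genes. Both knockdown libraries lay below both wild-type libraries for 31 of the 48 genes (64.6%), against 25.2% of the 12953 genes tested. They lay above for 7 genes (14.6%), against 33.4% of all genes tested. In either direction 58.6% of all genes did not overlap. With the columns scaled to equal sums, 22 of the 48 lay below and 11 above, against 18.1% and 44.8% of all genes. The median log2 change, knockdown minus wild type on log2(FPKM + 1), was −0.19 over the 48 genes and 0.04 over all genes tested. Taken singly, MYC knockdown replicate 1 had a median difference of −0.19 from the wild-type mean, and MYC knockdown replicate 2 one of −0.21.

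All 48 genes passed the filter on low values (at least 1 FPKM in at least 2 libraries). At an adjusted p under 0.05, limma with Benjamini-Hochberg adjustment over all genes tested called 0 of the 48, and 0% of all genes. Before adjustment, 18 genes were lower and 4 higher at a p under 0.05, where 25.9% of all genes passed in either direction. At an adjusted p under 0.10, a threshold taken up because an earlier analysis of these data found no gene at 0.05, limma called 11 of the 48 lower and 3 higher. The background at that threshold was 4.91% of all genes lower and 5.5% higher, or 10.4% in both directions against 29.2% of the 48. The genes called lower were SLC16A1, HK1, HK2, ALDOA, TPI1, PGK1, ENO1, LDHA, LDHB, PDK1 and MDH2, and those called higher were SLC16A3, PGLS and IDH2. With either wild-type library left out, the spread rested on the knockdown pair and limma made no call here and almost none among all genes tested. With MYC knockdown replicate 1 left out it called 29 lower and 7 higher, in a fit that took the spread from the close wild-type pair and called 20.8% of all genes lower and 20.1% higher. With MYC knockdown replicate 2 left out it called 26 lower and 7 higher, against 16.7% and 24.6% of all genes. When all rows of the deposited table were fitted, 6 of the 14 lost their call: SLC16A1, HK1, TPI1 and MDH2 among the lower genes and PGLS and IDH2 among the higher (limma adjusted p 0.108 to 0.141). With quantile normalization ALDOA, TPI1, LDHA and PGLS lost theirs.

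**Figure D1:**
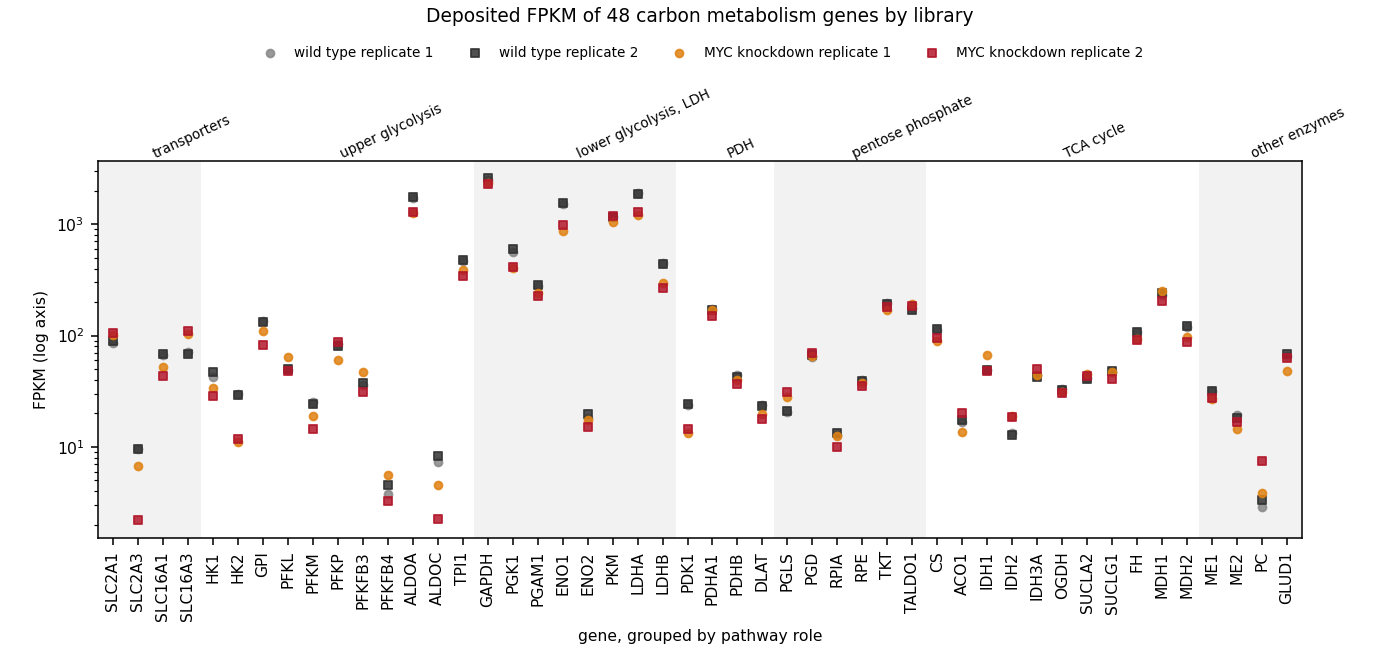
FPKM of the 48 genes (log axis) in each of the 4 libraries, grouped by pathway role; each point is 1 library. GAPDH, LDHA, ALDOA and ENO1 are the highest in wild type, at 1529.8 FPKM or more on average, and PC is the lowest, at 3.10 FPKM.

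MYC RNA itself stood at 82.9 and 82.0 FPKM in wild type against 65.0 and 75.8 FPKM in the knockdown libraries. Both knockdown values were lower, by 0.23 on the log2 scale (SE 0.10, limma adjusted p = 0.237). The FPKM of the Ensembl genes summed to 676445 and 668847 in the wild-type pair and to 644036 and 615172 in the knockdown pair. FPKM does not keep the depth, but if the steps between low values are equal fractions of a fragment in each library, the other libraries held 72.4% to 77.8% of the depth of wild type replicate 1. The 5 epithelial markers were measured in every library, from 54.3 FPKM for CDH1 to 2488 FPKM for KRT8. They did not stay level: KRT19 stood at 655 and 661 FPKM in wild type against 1047 and 1153 FPKM in the knockdown (log2 change 0.74, limma adjusted p = 0.0556), CDH1 (0.30) and KRT8 (0.15) were higher and EPCAM (−0.15) lower without overlap, and KRT18 overlapped. The part of these differences in the results below was not tested. PTPRC, VWF, COL1A2, COL3A1 and DCN, which mark leukocytes, endothelium and fibroblasts, were listed at 0 in all 4, CD3E reached at most 0.03 FPKM, while COL1A1 (2.98 to 8.12 FPKM) and CD68 (12.4 to 22.3 FPKM) were measured. Interferon-stimulated genes set the knockdown libraries apart: IFI6 stood at 375 FPKM in MYC knockdown replicate 1, 11.6 in MYC knockdown replicate 2 and 11.1 and 10.2 in wild type. The part of this difference in the results below was not tested either.

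The transporters split by isoform. SLC16A3 (MCT4; chromosome 17, 82228397 to 82261129, plus strand; all gene positions here are GENCODE release 29, GRCh38), the lactate exporter of glycolytic cells, stood at 70.4 and 68.9 FPKM in wild type against 102.7 and 109 FPKM in the knockdown libraries. The groups were far apart, with a log2 change of 0.60 (SE 0.08, limma adjusted p = 0.0566). SLC16A1 (MCT1; chromosome 1, 112911847 to 112957013, minus strand), the more widely expressed lactate and pyruvate transporter, moved the other way. It stood at 67.5 and 67.7 FPKM in wild type against 52.3 and 43.0 FPKM in the knockdown, a log2 change of −0.50 (SE 0.12, limma adjusted p = 0.0959). As a share of the summed FPKM of both, SLC16A1 made up 48.9% and 49.6% in wild type and 33.8% and 28.2% in the knockdown libraries. Exons of SLC16A3 overlap CSNK1D on the opposite strand, which stood at 50.2 ± 0.997 FPKM in wild type and 58.3 ± 6.46 FPKM in the knockdown (SD, n = 2). The labels do not say whether the libraries kept strand.

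The glucose transporters split in the same manner, though neither was called. SLC2A1 (GLUT1), the main basal glucose transporter, stood at 86.2 and 88.8 FPKM in wild type against 101 and 106 FPKM in the knockdown, without overlap (log2 change 0.24, limma adjusted p = 0.138). SLC2A3 (GLUT3), a transporter of high glucose affinity, was low throughout, at 9.50 and 9.59 FPKM in wild type against 6.67 and 2.18 FPKM in the knockdown. Its knockdown values were below wild type but far from each other (log2 change −1.09, SE 0.43, limma adjusted p = 0.205). MYC knockdown replicate 1 differed by −0.46 from the wild-type mean on the log2 scale and MYC knockdown replicate 2 by −1.73.

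In upper glycolysis, 7 of 11 genes were lower without overlap and 0 were higher, with a median log2 change of −0.44. HK2 (ENSG00000159399; chromosome 2, 74833981 to 74893359, plus strand), the inducible hexokinase that phosphorylates glucose in many tumours, showed the lowest log2 change of the 48 genes. It stood at 29.7 and 29.1 FPKM in wild type against 11.0 and 11.8 FPKM in the knockdown, so that both knockdown libraries were close to each other and at 38.7% of the wild-type mean together. The log2 change was −1.30 (SE 0.09, limma adjusted p = 0.0556). HK1, the housekeeping hexokinase, stood at 42.3 and 46.8 FPKM in wild type against 33.7 and 28.8 FPKM in the knockdown, also without overlap (log2 change −0.50, SE 0.11, limma adjusted p = 0.0938). Since HK2 was lower by more than HK1, its share of their summed FPKM came to 39.8% ± 2.02 for wild type and 26.8% ± 3.03 for the knockdown (SD, n = 2). The noncoding gene AC019069.1, on the opposite strand, overlaps HK2 exons and had 13.0% of its mean FPKM. An exact two-sided permutation test of 2 against 2 libraries cannot go below 0.33, which was its p here and for every share that did not overlap among the 13 compared.

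GPI, which converts glucose 6-phosphate to fructose 6-phosphate, stood at 134 and 133 FPKM in wild type against 109 and 82.6 FPKM in the knockdown (log2 change −0.48, limma adjusted p = 0.139). The phosphofructokinase subunits, which form the committed step of glycolysis, did not move together. PFKM, the muscle-type subunit, was lower in both knockdown libraries, at 19.0 and 14.5 FPKM against 25.5 and 24.4 FPKM in wild type (log2 change −0.56, SE 0.15, limma adjusted p = 0.114). PFKL, the liver-type subunit, stood at 49.4 and 49.6 FPKM in wild type against 64.2 and 47.7 FPKM in the knockdown. PFKP, the platelet-type subunit, stood at 83.3 and 80.9 FPKM in wild type against 59.7 and 87.6 FPKM in the knockdown. The knockdown libraries thus lay on opposite sides of wild type for both, and PFKP made up 41.8% and 58.5% of the 3 subunits in MYC knockdown replicates 1 and 2, against 52.7% and 52.2% in wild type. Exons of PFKM overlap SENP1 on the opposite strand, at 12.6 ± 0.841 FPKM in wild type and 13.5 ± 1.15 in the knockdown (SD, n = 2).

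PFKFB3 and PFKFB4, the bifunctional enzymes that set fructose 2,6-bisphosphate and with it phosphofructokinase activity, were also split between the knockdown libraries. PFKFB3 stood at 35.9 and 37.2 FPKM in wild type against 47.3 and 31.2 FPKM in the knockdown. PFKFB4 stood at 3.77 and 4.51 FPKM in wild type against 5.64 and 3.25 FPKM in the knockdown. Both were above wild type in the first knockdown library and below it in the second.

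The aldolases, which split the 6-carbon sugar, were lower in both forms. ALDOA (chromosome 16, 30064164 to 30070457, plus strand), the main form, stood at 1710.3 and 1751 FPKM in wild type against 1266 and 1292 FPKM in the knockdown. The knockdown pair was as close as the wild-type pair, with a log2 change of −0.44 (SE 0.07, limma adjusted p = 0.0600). With quantile normalization the log2 change was −0.17 (limma adjusted p = 0.198). ALDOC, the brain form, was far less abundant, at 7.28 and 8.23 FPKM in wild type and 4.53 and 2.26 FPKM in the knockdown (log2 change −1.04, SE 0.28, limma adjusted p = 0.116). TPI1, which interconverts the triose phosphates, stood at 465 and 482 FPKM in wild type against 385 and 343 FPKM in the knockdown (log2 change −0.38, SE 0.09, limma adjusted p = 0.0931, and −0.25 with an adjusted p of 0.201 after quantile normalization).

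In lower glycolysis all 8 genes had a negative log2 change, 7 of them without overlap, and the median was −0.38. ENO1 (ENSG00000074800; chromosome 1, 8861000 to 8879250, minus strand), the main enolase, stood at 1523 and 1537 FPKM in wild type against 865 and 985 FPKM in the knockdown. The knockdown mean was 60.5% of wild type, with a log2 change of −0.73 (SE 0.09, limma adjusted p = 0.0566). ENO2, the neuronal enolase, stood at 18.3 and 19.9 FPKM in wild type against 17.3 and 15.0 FPKM in the knockdown (log2 change −0.23, SE 0.11, limma adjusted p = 0.275). Since ENO1 was lower by more than ENO2, the ENO2 share of their summed FPKM came to 1.23% in wild type and 1.73% in the knockdown. PGK1, which makes the first ATP of the pathway's pay-off phase, stood at 561 and 598 FPKM in wild type against 403 and 414 FPKM in the knockdown (log2 change −0.50, SE 0.07, limma adjusted p = 0.0572).

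Both lactate dehydrogenase genes were lower by similar amounts. LDHA (ENSG00000134333; chromosome 11, 18394388 to 18408425, plus strand), the subunit that favours lactate formation, stood at 1923 and 1867 FPKM in wild type against 1216 and 1297 FPKM in the knockdown (log2 change −0.59, SE 0.07, limma adjusted p = 0.0566). With quantile normalization its log2 change was −0.30 (limma adjusted p = 0.107). LDHB (ENSG00000111716; chromosome 12, 21635342 to 21757857, minus strand), the subunit that favours pyruvate formation, stood at 452 and 443 FPKM in wild type against 296 and 269 FPKM in the knockdown (log2 change −0.66, SE 0.08, limma adjusted p = 0.0556). The groups were well separated for both. LDHB made up 19.0% and 19.2% of their sum in wild type and 19.6% and 17.2% in the knockdown libraries, so it overlapped between groups.

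The other genes of lower glycolysis differed by less. PGAM1, phosphoglycerate mutase, stood at 276 and 283 FPKM in wild type against 241 and 228 FPKM in the knockdown (log2 change −0.25, limma adjusted p = 0.122). GAPDH, the dehydrogenase that makes NADH, stood at 2488 and 2580 FPKM in wild type against 2344 and 2287 FPKM in the knockdown (log2 change −0.13, limma adjusted p = 0.314, and 0.09 with quantile normalization). PKM, pyruvate kinase, stood at 1166 and 1152 FPKM in wild type against 1037 and 1183 FPKM in the knockdown, so that its groups overlapped. Its log2 change was −0.07, and it was 0.03 with equal column sums and 0.22 with quantile normalization. Processed pseudogenes of these genes took up little of the signal, at most 0.520% of the parent gene's FPKM for TPI1, GAPDH, PGAM1, ENO1, PKM, LDHA and LDHB.

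The 19 glycolytic enzyme and regulator genes from HK1 to LDHB together made up 1.63% and 1.66% of the Ensembl FPKM in wild type and 1.31% and 1.40% in the knockdown libraries. Scaling a library as a whole leaves this share unchanged. Most of it came from GAPDH, LDHA, ALDOA, ENO1 and PKM, which together held 1.30% and 1.33% in wild type and 1.05% and 1.15% in the knockdown. The share of the pentose phosphate genes was higher in the knockdown, at 0.0751% and 0.0749% in wild type and 0.0784% and 0.0823% in the knockdown. Their summed FPKM overlapped, at 508 and 501 in wild type and 505 and 506 in the knockdown, while the Ensembl total was lower in the knockdown libraries.

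**Figure D2:**
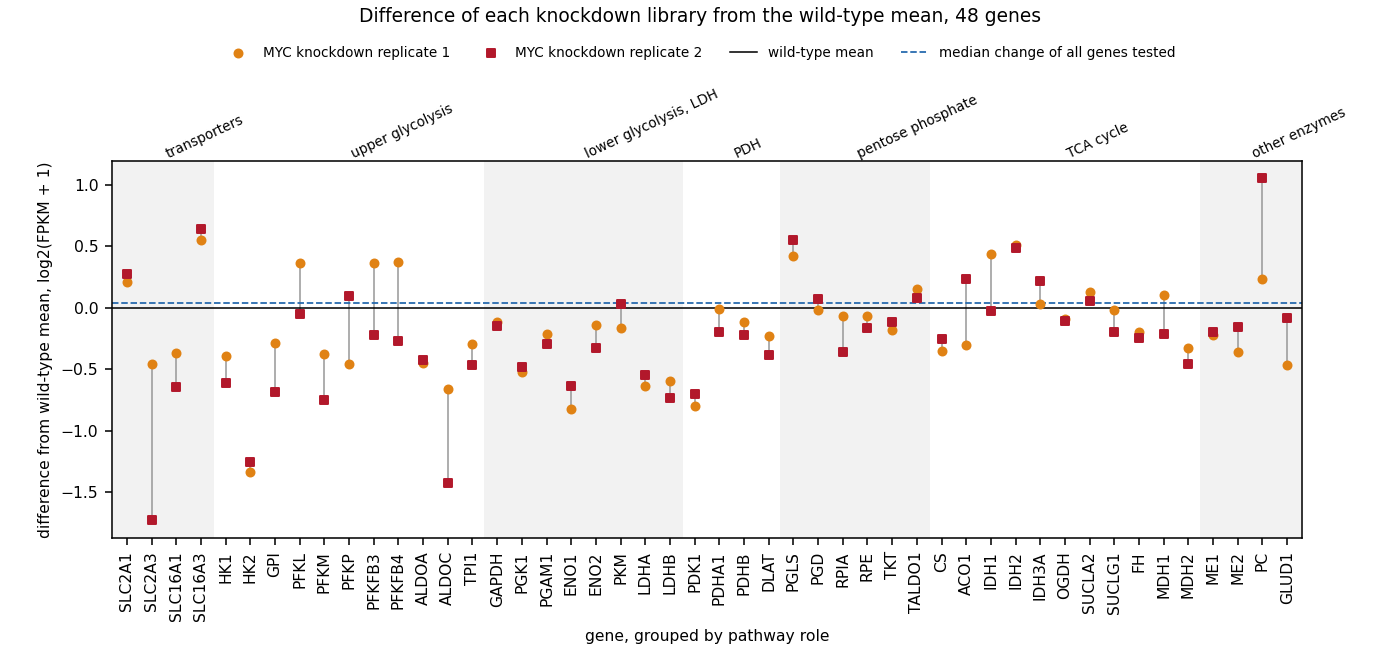
Log2(FPKM + 1) of each knockdown library minus the wild-type mean for the 48 genes, grouped by role; the grey line joins the 2 knockdown libraries, and the dashed line is the median log2 change of all genes tested (0.04). HK2 lies at −1.34 and −1.25, while PFKL, PFKP, PFKFB3 and PFKFB4 have the libraries on opposite sides of 0.

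At the entry to mitochondria, all 4 genes of the pyruvate dehydrogenase group were lower without overlap, at a median log2 change of −0.24. This did not hold for 9 further genes of this step from the list described below, other subunits of the complex among them. Of those, 1 was lower and 2 were higher without overlap, 6 overlapped, and the median was 0.02. PDK1 (chromosome 2, 172555373 to 172608669, plus strand), a kinase that switches the complex off and a known hypoxia-induced gene, stood at 24.0 and 24.1 FPKM in wild type against 13.4 and 14.4 FPKM in the knockdown. The pairs were tight and separate (log2 change −0.75, SE 0.09, limma adjusted p = 0.0560). Among the further genes, its isozyme PDK2 was higher without overlap (log2 change 0.36, limma adjusted p = 0.218). PDK3 was lower without overlap (log2 change −0.34, limma adjusted p = 0.284). The subunits of the complex differed by less and none was called. DLAT, the E2 core, stood at 23.6 and 23.4 FPKM in wild type against 19.8 and 17.8 FPKM in the knockdown (log2 change −0.31, limma adjusted p = 0.145). PDHA1, an E1 subunit, stood at 174 and 171 FPKM in wild type against 170 and 150.2 FPKM in the knockdown (log2 change −0.10, limma adjusted p = 0.508), so that MYC knockdown replicate 1 lay just below wild type. PDHB, the other E1 subunit, stood at 44.1 and 42.2 FPKM in wild type against 39.9 and 36.9 FPKM in the knockdown (log2 change −0.17, limma adjusted p = 0.295).

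The pentose phosphate genes were mixed, with 3 lower and 2 higher without overlap among 6 and a median log2 change of −0.04 (0.05 with equal column sums). PGLS (chromosome 19, 17511629 to 17521288, plus strand), the lactonase of the oxidative branch, was called higher. It stood at 20.5 and 21.0 FPKM in wild type against 28.1 and 30.9 FPKM in the knockdown, a log2 change of 0.49 (SE 0.09, limma adjusted p = 0.0748). PGD, the next enzyme of that branch, stood at 64.4 and 67.4 FPKM in wild type against 65.0 and 69.2 FPKM in the knockdown, and the groups overlapped. In the non-oxidative branch, RPIA and RPE interconvert pentose phosphates. RPIA stood at 12.8 and 13.4 FPKM in wild type against 12.4 and 9.96 FPKM in the knockdown (log2 change −0.21), and MYC knockdown replicate 2 was far lower than the other. RPE stood at 39.5 and 38.8 FPKM in wild type against 37.4 and 34.9 FPKM in the knockdown (log2 change −0.11). TKT, transketolase, stood at 194 and 192 FPKM in wild type against 171 and 179 FPKM in the knockdown (log2 change −0.15). TALDO1, transaldolase, stood at 176 and 168 FPKM in wild type against 191 and 182 FPKM in the knockdown (log2 change 0.12). The limma adjusted p of RPIA, RPE, TKT and TALDO1 lay between 0.270 and 0.441.

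Among the 11 TCA cycle genes and related dehydrogenases, 5 were lower and 2 higher without overlap, and the median log2 change was −0.06 (0.04 with equal column sums). Of the malate and isocitrate dehydrogenase genes here, the mitochondrial MDH2 and IDH2 were called, in opposite directions, and the others were not. MDH2 (chromosome 7, 76048051 to 76067508, plus strand), the mitochondrial malate dehydrogenase, stood at 120.1 and 121 FPKM in wild type against 96.1 and 87.4 FPKM in the knockdown (log2 change −0.39, SE 0.08, limma adjusted p = 0.0840). MDH1, its cytosolic counterpart, stood at 230.2 and 243 FPKM in wild type against 253 and 204 FPKM in the knockdown, on both sides of wild type. MDH2 made up 34.3% and 33.3% of their sum in wild type and 27.5% and 30.0% in the knockdown libraries.

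IDH2 (chromosome 15, 90083045 to 90102504, minus strand), the mitochondrial NADP-dependent isocitrate dehydrogenase, was called higher. It stood at 13.4 and 12.7 FPKM in wild type against 19.1 and 18.7 FPKM in the knockdown (log2 change 0.50, SE 0.09, limma adjusted p = 0.0701). IDH1, the cytosolic form, stood at 49.3 and 49.3 FPKM in wild type against 67.1 and 48.5 FPKM in the knockdown, so only MYC knockdown replicate 1 was above wild type. IDH3A, the catalytic subunit of the NAD-dependent enzyme of the cycle, stood at 44.3 and 42.2 FPKM in wild type against 44.2 and 50.4 FPKM in the knockdown (log2 change 0.12), and the groups overlapped.

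CS, citrate synthase, stood at 112 and 115 FPKM in wild type against 88.9 and 95.1 FPKM in the knockdown (log2 change −0.30, SE 0.08, limma adjusted p = 0.107). FH, fumarase, stood at 108 and 107 FPKM in wild type against 93.7 and 90.4 FPKM in the knockdown (log2 change −0.22, limma adjusted p = 0.151). Both were separate from wild type without passing the threshold. OGDH, of the oxoglutarate dehydrogenase complex, stood at 33.4 and 32.6 FPKM in wild type against 30.9 and 30.6 FPKM in the knockdown (log2 change −0.10). Of the succinyl-CoA ligase subunits, SUCLG1 stood at 46.7 and 47.8 FPKM in wild type against 46.6 and 41.1 FPKM in the knockdown (log2 change −0.11), with MYC knockdown replicate 1 close to wild type. SUCLA2 stood at 41.9 and 40.5 FPKM in wild type against 45.2 and 42.9 FPKM in the knockdown (log2 change 0.09). None of these 3 was called, and none overlapped. ACO1, the cytosolic aconitase that doubles as an iron sensor, stood at 16.8 and 17.3 FPKM in wild type against 13.6 and 20.3 FPKM in the knockdown, on both sides of wild type. Exons of IDH3A overlap CIB2 on the opposite strand, whose mean FPKM was 27.2% of that of IDH3A.

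Of the enzymes that feed or drain the cycle, ME1 and ME2, the cytosolic and mitochondrial malic enzymes, were lower without overlap. ME1 stood at 31.7 and 31.5 FPKM in wild type against 26.9 and 27.5 FPKM in the knockdown (log2 change −0.21, limma adjusted p = 0.195). ME2 stood at 19.4 and 18.0 FPKM in wild type against 14.3 and 16.7 FPKM in the knockdown (log2 change −0.26, limma adjusted p = 0.238). The ME2 share of the 2 overlapped between groups, at 37.2% ± 1.07 in wild type and 36.2% ± 2.10 in the knockdown (SD, n = 2). GLUD1, glutamate dehydrogenase, stood at 66.0 and 67.6 FPKM in wild type against 48.1 and 63.1 FPKM in the knockdown (log2 change −0.27, limma adjusted p = 0.310). PC, pyruvate carboxylase, which refills oxaloacetate, was the lowest gene in wild type, at 2.86 and 3.33 FPKM, and stood at 3.82 and 7.48 FPKM in the knockdown (log2 change 0.65, SE 0.30, limma adjusted p = 0.257). Its exons overlap LRFN4 on the opposite strand, which was more abundant, at 16.7 and 18.4 FPKM in wild type and 15.5 and 20.2 FPKM in the knockdown. Reads from the shared exon stretch cannot be told apart without strand, and the size of that stretch was not measured.

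**Figure D3:**
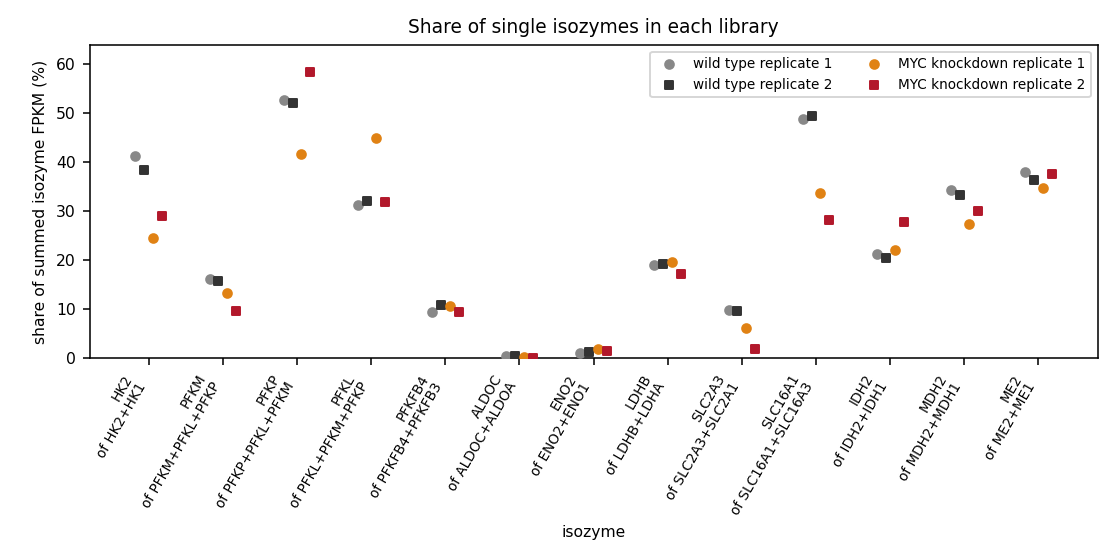
Share of 1 isozyme in the summed FPKM of its isozymes (percent), for 13 shares; each point is 1 of the 4 libraries. SLC16A1 is at 48.9% and 49.6% in wild type against 33.8% and 28.2% in the knockdown, while the LDHB share overlaps between groups.

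Set beside the promoter letters shown above, the 7 genes with CACGTG had a median log2 change of −0.44 (−1.30 in HK2 to 0.07 in PFKFB3), and 6 were lower without overlap. The 38 genes with a window and no CACGTG had a median of −0.16 (−0.75 to 0.65), of which 22 were lower and 7 higher without overlap. GAPDH and PDHB hold the motif at log2 changes of −0.13 and −0.17, while ENO1, LDHB and PDK1, at −0.73, −0.66 and −0.75, hold none in these windows. Of the 7, all but PDHB belong to glycolysis, where the medians with or without the motif were −0.44 (upper) and −0.38 (lower). The 38 include every pentose phosphate and TCA gene with a window, so the groups also differ by pathway. The comparison is a description of a few genes and was not tested.

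A list of 79 further genes of the same pathways and their regulators was taken from textbook membership, and 53 of them passed the filter. Without overlap 23 were lower (43.4%) and 18 higher (34.0%), against 25.2% and 33.4% of all genes tested. The median log2 change was −0.09. Of the 9 further glycolysis genes that passed, 5 were lower (55.6%) and 2 higher (22.2%) without overlap, at a median of −0.09. Of the 9 further TCA genes that passed, 2 were lower (22.2%) and 5 higher (55.6%), at a median of 0.09. At an adjusted p under 0.10 limma called 3 lower and 1 higher (7.55% together, against the 10.4% of all genes). PRPS1, which makes phosphoribosyl pyrophosphate from ribose 5-phosphate, stood at 48.4 and 48.4 FPKM in wild type against 20.9 and 29.4 FPKM in the knockdown (log2 change −0.93, SE 0.17, limma adjusted p = 0.0718). SDHB, the iron-sulfur subunit of succinate dehydrogenase, stood at 89.5 and 92.8 FPKM in wild type against 66.6 and 66.1 FPKM in the knockdown (log2 change −0.45, SE 0.07, limma adjusted p = 0.0616). Other subunits of the complex were not called. SDHA stood at 101 and 103 FPKM in wild type against 107 and 109 FPKM in the knockdown (log2 change 0.09), SDHC at 69.5 and 69.5 FPKM against 82.6 and 81.1 FPKM (0.23), and SDHD at 83.9 and 85.5 FPKM against 85.8 and 73.1 FPKM (−0.10). H6PD, which makes NADPH in the endoplasmic reticulum, was the gene called higher, at 5.68 and 5.44 FPKM in wild type and 9.53 and 9.12 FPKM in the knockdown (log2 change 0.65, SE 0.11, limma adjusted p = 0.0629).

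Of the regulators on that list, EGLN3, an oxygen-sensing prolyl hydroxylase induced by hypoxia, was the third gene called lower, at 6.94 and 7.26 FPKM in wild type and 2.84 and 2.31 FPKM in the knockdown (log2 change −1.18, SE 0.14, limma adjusted p = 0.0556). TXNIP, which is induced by glucose and restrains glucose uptake, stood at 23.1 and 23.7 FPKM in wild type against 15.0 and 6.26 FPKM in the knockdown, lower in both but by very different amounts (log2 change −1.18, SE 0.38, limma adjusted p = 0.153). EGLN3, PDK2, PDK3 and the SDH subunits other than SDHB were named after their values were seen.

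**Figure D4:**
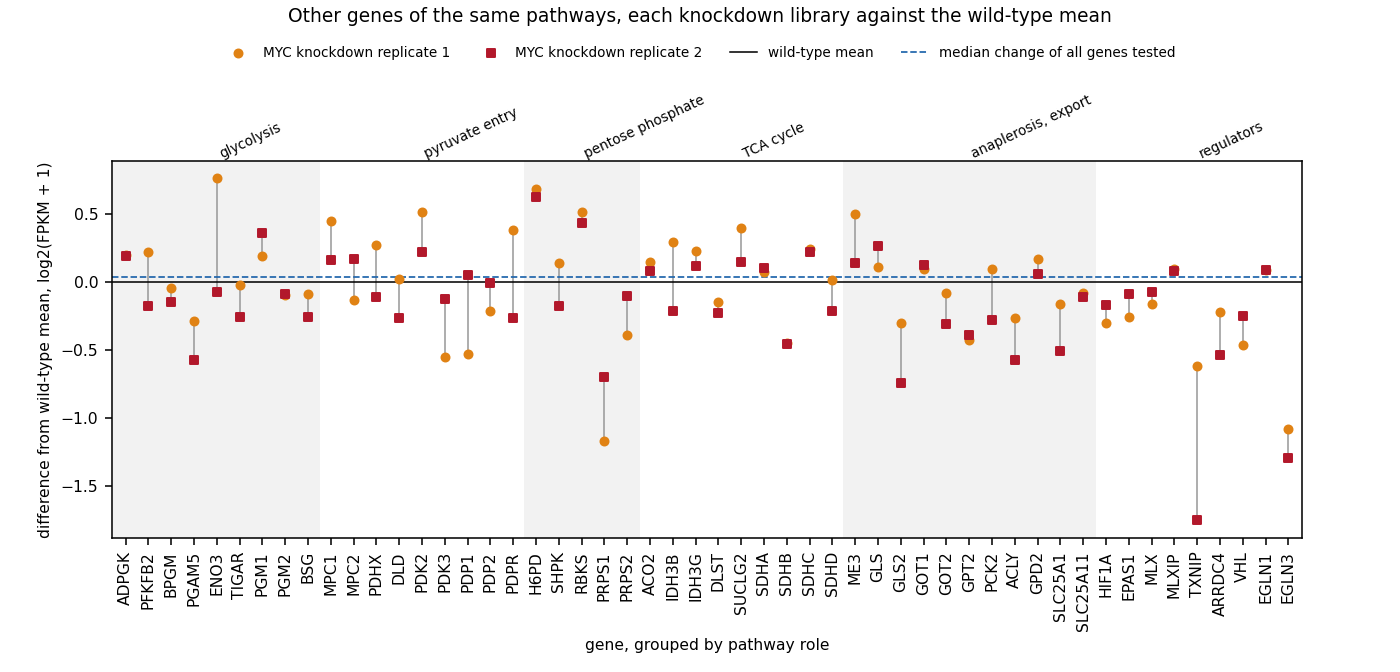
Log2(FPKM + 1) of each knockdown library minus the wild-type mean for the further pathway genes and regulators that passed the filter, 1 of the 53 left out; the grey line joins the 2 knockdown libraries, and the dashed line is the median log2 change of all genes tested (0.04). TXNIP, EGLN3 and PRPS1 lie lowest on average, and H6PD is above 0.6 in both knockdown libraries.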

How the data were processed

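Total RNA of the 4 libraries was sequenced with a standard Illumina protocol, per the labels' protocols. STAR and RSEM were used, per the submitters' processing notes. Versions, genome build, strandedness and read depth were not stated in the labels. The authors deposited 1 value per gene and library, read here as FPKM from the values, since the columns sum to different totals. They could also be TPM with some rows removed.

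The 53777 Ensembl rows of 344810 were used. The 12953 genes that reached 1 FPKM in 2 or more libraries were fitted on the log2(FPKM + 1) scale in limma (version 3.58.1; lmFit, then eBayes with trend; R version 4.3.3), with group as the only term and Benjamini-Hochberg adjustment over all genes tested. This scale understates the change of low genes. The fit was tested on simulated data with the same spread in both groups, so that test does not cover the unequal spread of these libraries. Groups did not overlap where both values of 1 group lay above both of the other. FPKM keeps no counts, so no counting interval is given.

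The genes and lists were chosen with earlier results of these data known. Values in every library are given for genes with a log2 change of at least 0.5 in size, an adjusted p under 0.10 or an isozyme. Further pathway genes are named from a mean of 5 FPKM by the same limits. PECAM1, fixed as a marker, matched no single row. A few further pathway genes and 1 gene that shares exons with a member are counted but not reported here. Positions are from GENCODE release 29 and promoters from RefSeq. Alternatives were the pseudocount, the filter, a replicate block, each library left out, 3 scalings and all rows.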

Additional observations from a re-analysis of the deposited data

How the results depend on the processing

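The wild-type pair lay closer together than the knockdown pair, at a median SD of 0.05 against 0.14 on the log2 scale, and the calls depend on which pair sets the spread. At an adjusted p under 0.10, limma called 11 genes lower and 3 higher. The replicate block, and likewise all rows of the table, gave 7 lower and 1 higher (without SLC16A1, HK1, TPI1, MDH2, PGLS and IDH2, at limma adjusted p 0.112 to 0.132 with the block). Of all genes, the block called 2.87% lower and 2.71% higher, and the fit of all rows called 1.66% and 1.31% of the rows tested. Median of ratios scaling gave 18 lower (7.33% of all genes), and quantile normalization 9 lower and 2 higher (5.05% and 4.26%). Leaving out 1 library gave 0 to 29 lower and 0 to 7 higher. At 0.05, where the main count was 0, there were 19 calls with no filter (a fit that limma warned is unreliable, as most of its residual variances are 0), 8 with a mean of at least 5 FPKM, 3 with median of ratios scaling and 0 to 31 with 1 library left out. Those fits called 4.7%, 3.23%, 2.43% and 0% to 26.3% of all genes.

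The replicate numbers are shared between groups but 2 pairs do not show a pairing, and the correlation of their deviations was −0.0059. For the further pathway genes, against 3 lower and 1 higher, there were 7 lower and 2 higher with no filter, 6 lower with median of ratios scaling, 5 higher with equal column sums, 0 higher with the replicate block and with all rows, and 0 to 20 lower and 0 to 15 higher with 1 library left out. The share of all genes called moved with the setting too. It was 7.33% (lower) with median of ratios scaling and 12.7% (higher) with equal column sums. With no filter it was 2.44% (lower) and 3.14% (higher). The share called higher was 2.71% with the replicate block and 1.31% with all rows. With 1 library left out it moved as given in the Results. Whether the further genes differ from all genes under these settings was not tested. Among the 48 genes, those without overlap, against 31 lower and 7 higher, numbered 22 and 11 with equal column sums (18.1% and 44.8% of all genes). With either knockdown library alone, an alternative added after seeing the data, they numbered 34 to 36 and 12, where 35.1% to 42.5% of all genes were lower and 44.1% to 51.8% higher.

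With equal column sums the medians were −0.10 over all 48 genes, −0.036 for the transporters, −0.28 for lower glycolysis, −0.14 for pyruvate dehydrogenase, 0.051 for the pentose phosphate and 0.040 for the TCA genes. Over all genes tested the median then moved from 0.04 to 0.12. With median of ratios scaling they were −0.24 over all 48, −0.42 for lower glycolysis, −0.085 for the pentose phosphate and −0.10 for the TCA genes. With quantile normalization upper and lower glycolysis stood at −0.25 and −0.28. With 1 library left out the medians ranged from −0.42 to −0.35 for lower glycolysis, −0.053 to −0.021 for the pentose phosphate and −0.10 to −0.018 for the TCA genes. The cause of these shifts was not tested.

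The 14 called genes kept their direction under the 12 alternatives. Of the others, PFKFB4 (−0.029) and GAPDH (0.089) changed sign with quantile normalization, PKM with equal column sums (0.031) and quantile normalization (0.22), PGD with median of ratios scaling (−0.016), and ACO1 (0.058) and MDH1 (0.040) with equal column sums. With 1 library left out the log2 change ranged from −0.053 to 0.37 for PFKL, −0.45 to 0.092 for PFKP, −0.22 to 0.36 for PFKFB3, −0.27 to 0.37 for PFKFB4, −0.16 to 0.030 for PKM, −0.018 to 0.070 for PGD, −0.30 to 0.24 for ACO1, −0.024 to 0.44 for IDH1 and −0.21 to 0.10 for MDH1. The difference in isozyme share, in percentage points, then ranged from −10.7 to 6.06 for PFKP, −0.782 to 0.528 for PFKFB4, −1.93 to 0.495 for LDHB and −2.43 to 0.547 for ME2. The other 9 shares kept their direction.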

Other observations

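Several tissue-restricted isozymes were at or near 0 in these cells, though ENO3, the muscle enolase, was measured at 4.13 to 8.14 FPKM. Of the 79 further pathway genes, 26 did not pass the filter. FBP2, the muscle fructose bisphosphatase, GAPDHS and PGK2, the testis forms of their enzymes, and PCK1, the cytosolic carboxykinase of gluconeogenesis, were listed at 0 in all 4 libraries. PKLR, the liver and red cell pyruvate kinase, was listed at 0.04 FPKM in MYC knockdown replicate 1 and at 0 in the other libraries. FBP1, the gluconeogenic fructose bisphosphatase, was near the limit of the filter, at 1.13 and 0.70 FPKM in wild type and 0.36 and 0.53 FPKM in the knockdown. PDK4, a pyruvate dehydrogenase kinase of fasting, reached at most 0.02 FPKM, beside 24.0 FPKM for PDK1 in wild type.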
